A study of Mesocricetus auratus with 24 samples.

Results

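Asns (ENSMAUG00000004155), asparagine synthetase, and Mthfd2 (ENSMAUG00000009261), a mitochondrial enzyme of folate metabolism, are 2 of the 22283 genes in a liver RNA-seq count table from golden Syrian hamsters. The study lists both among metabolic genes with different levels in HFD and HFD-T070 5% livers, so they were chosen by their HFD and HFD-T070 5% values, and they were grouped here as known targets of the transcription factor ATF4. Liver was sequenced from 24 wild-type males, 8 per group, that were 8 weeks old at the start. The ND group ate a normal diet. The HFD group ate a high-fat diet based on hydrogenated coconut oil with added fructose and cholesterol, and the HFD-T070 5% group ate this high-fat diet mixed with 5% Totum-070, a blend of olive leaf, artichoke leaf, chrysanthellum, goji fruit and black pepper extracts. Feeding lasted 12 weeks by the methods and 6 weeks by the labels. All hamsters were fasted for 6 h before sacrifice and were housed with cage mates, and the labels do not give the cages.

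Asparagine synthetase makes asparagine from aspartate, with glutamine as the nitrogen donor and ATP as the energy source. MTHFD2 oxidizes methylene tetrahydrofolate in mitochondria with NAD and opens its ring to give formyl tetrahydrofolate, a donor of carbon units for purines. Both genes are commonly induced through ATF4 in the integrated stress response, in which phosphorylation of the initiation factor eIF2 lowers general translation while ATF4 protein is made. MTHFD2 is typically high in embryonic and dividing cells and low in most adult tissues.

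Total counts were 10789142 in HFD replicate 7 and 15289624 to 20740364 in the other libraries. CPM are counts scaled to a common library size by TMM, the scaling of edgeR that lines up libraries on most of their genes, and 13134 genes had enough counts to be tested. The library labelled HFD replicate 1 was unlike the rest of its group. Its CPM lay within the range of the ND libraries at 73.8% of the genes tested and beyond the lowest or highest of its 7 group members at 49.7% of them. The same shares are not given here for other libraries. The group levels and comparisons of Asns and Mthfd2 that include HFD replicate 1 are also given without it. In bulk liver, fewer cells of a type and less RNA per cell cannot be told apart. Identifiers other than those the study pairs with symbols could not be named, so the liver label was not checked against hepatocyte markers, and other ATF4 targets were not analysed here.

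Asns was close to the counting limit in the ND livers and clearly counted in most HFD livers. The 8 ND libraries held 0 to 11 reads of Asns (median 1), 21 reads in all, and ND replicate 7 alone contributed 11 of them. ND replicate 8 had none, and the 95% exact Poisson interval of a count of 0 reaches 3.69 reads, counting error only. The 8 HFD libraries held 1 to 97 reads (median 69.5), and the 8 HFD-T070 5% libraries held 6 to 31 reads (median 9). Scaled to library size, the level of Asns was 0 to 0.655 CPM in the ND group, with a mean of 0.163 ± 0.212 CPM (SD, n = 8). It was 0.0697 to 4.33 CPM in the HFD group, with a mean of 2.75 ± 1.47 CPM (SD, n = 8). It was 0.338 to 1.48 CPM in the HFD-T070 5% group, with a mean of 0.661 ± 0.383 CPM (SD, n = 8). The group order was therefore ND, HFD-T070 5%, HFD, and 7 of the 8 HFD libraries lay above every ND library. The exception was HFD replicate 1, which had 1 read of Asns, within the ND range.

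Mthfd2 showed the same group order from a higher baseline. The ND libraries held 14 to 35 reads (median 16), and the level was 0.868 to 2.09 CPM, with a mean of 1.24 ± 0.438 CPM (SD, n = 8). The HFD libraries held 11 to 128 reads (median 101.5), at 0.766 to 5.72 CPM, with a mean of 4.28 ± 1.72 CPM (SD, n = 8). The HFD-T070 5% libraries held 21 to 48 reads (median 37.5), at 1.18 to 2.39 CPM, with a mean of 1.94 ± 0.418 CPM (SD, n = 8). Again 7 of the 8 HFD libraries lay above all ND libraries. HFD replicate 1, with 11 reads and 0.766 CPM, was lower than every ND library. Without HFD replicate 1, the HFD means were 3.14 ± 1.07 CPM for Asns and 4.78 ± 1.06 CPM for Mthfd2 (SD, n = 7), and the HFD and ND groups did not overlap for either gene, as was the case in this direction at 13.1% of all genes tested. ND replicate 7 was the highest ND library for both genes, with 0.655 CPM of Asns and 2.09 CPM of Mthfd2.

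**Figure D1:**
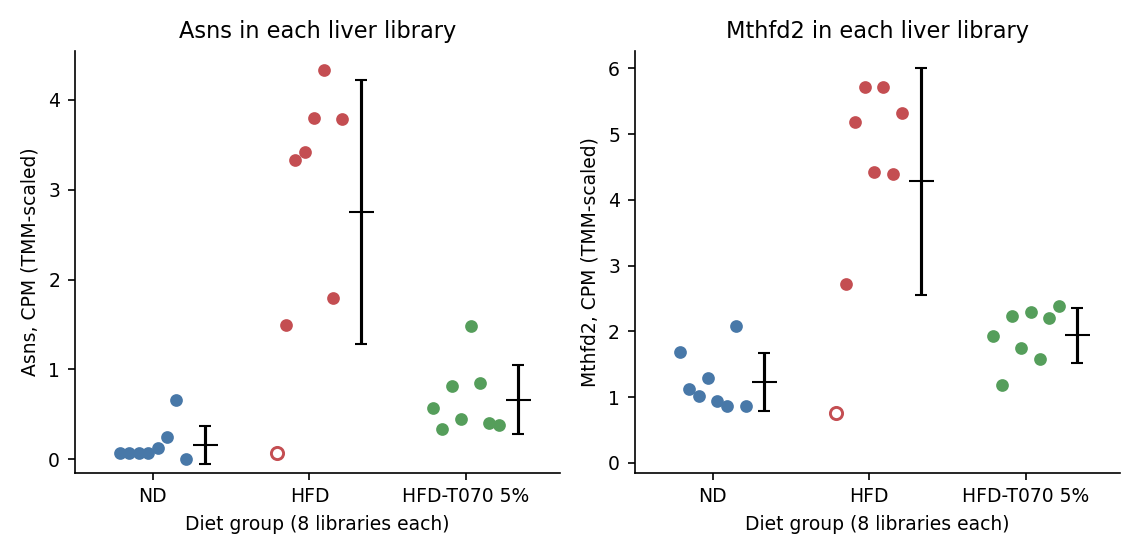
Level of Asns (left) and Mthfd2 (right) in CPM after TMM scaling in each of the 24 liver libraries, by diet group. Each point is a library, the open circle is HFD replicate 1, and the black bar gives the mean and SD of the 8 libraries. Of the HFD libraries, 7 of 8 lie above every ND library for each gene, and HFD replicate 1 lies at 0.0697 CPM of Asns and 0.766 CPM of Mthfd2.

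The first comparison asks what the HFD changed. Both genes were upregulated by HFD relative to ND. In edgeR's quasi-likelihood test over all 24 libraries, the log2 fold change of Asns was 4.02 (standard error 0.54, adjusted p = 1.32e-06), which is 16.2-fold and the 84th largest rise of the 13134 genes. For Mthfd2 it was 1.80 (standard error 0.27, adjusted p = 8.47e-06), which is 3.48-fold and ranked 689. A call in this direction was common, since 27.3% of all genes tested were called higher under HFD at an adjusted p of 0.05. The HFD and HFD-T070 5% libraries also served in the contrast for which the genes were listed, so tests of either group against ND are not fully independent of that choice. Without HFD replicate 1 the log2 fold changes were 4.22 (standard error 0.41) for Asns and 1.98 (standard error 0.19) for Mthfd2. Because ND replicate 7 holds most ND reads of Asns, the log2 fold change of Asns rose to 4.86 without it.

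The comparison of the HFD-T070 5% group with the ND group asks what remained of these rises under supplementation. For Asns, the log2 fold change came to 1.95 (standard error 0.65, adjusted p = 0.0172 from edgeR), ranked 284, and 22.3% of the genes tested were called higher in this comparison. All 8 HFD-T070 5% libraries were above the ND median, 3 of them were above every ND library, and the groups overlapped. This call was thin. Asns entered the test only through its counts in the HFD libraries. With the HFD-T070 5% and ND libraries alone it was filtered out, so the adjusted p and the rank are read as a description only. It passed in 23 of 24 fits with 1 library left out and in 6 of 7 other settings that gave a value. The log2 fold change was 1.65 (adjusted p = 0.0515 from edgeR) without HFD-T070 5% replicate 5, the library with the most Asns in its group. The log2 fold change was 2.78 (adjusted p = 0.0021 from edgeR) without ND replicate 7 and 1.97 (adjusted p = 0.00259) without HFD replicate 1. With voom of limma it was 2.23 (adjusted p = 0.0565).

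For Mthfd2, the log2 fold change between HFD-T070 5% and ND was 0.65 (standard error 0.29, adjusted p = 0.0692 from edgeR), ranked 1807, so the difference did not pass the threshold, with an unadjusted 95% interval of 0.09 to 1.22. All 8 HFD-T070 5% libraries were above the ND median of 1.07 CPM, and 4 of them were within the ND range. The call depended on which libraries entered the fit. In a fit of the HFD-T070 5% and ND libraries alone, the log2 fold change was 0.67 (adjusted p = 0.00886 from edgeR). It was likewise 0.67 (adjusted p = 0.00939) without HFD replicate 1, which belongs to neither group but enters the filter, the scaling and the shared estimate of the spread. Its standard error was then 0.20. It also passed without ND replicate 7 (0.83, adjusted p = 0.0292) and without HFD-T070 5% replicate 2 (0.75, adjusted p = 0.0439).

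Between HFD-T070 5% and HFD, the contrast for which the study listed the genes, the values are a description without a test. The fitted log2 difference (HFD-T070 5% minus HFD) was −2.07 (standard error 0.41) for Asns and −1.15 (standard error 0.25) for Mthfd2, and without HFD replicate 1 it was −2.25 (standard error 0.31) and −1.31 (standard error 0.18). In this contrast 3.08% of all genes were called lower. Leaving out HFD replicate 1, all 8 HFD-T070 5% libraries lay below the other 7 HFD libraries for both genes, an arrangement found at 1.02% of genes. The margin was narrow for Asns, with 1.48 CPM in HFD-T070 5% replicate 5 (31 reads, 95% exact Poisson interval 21.1 to 44.0) and 1.50 CPM in HFD replicate 2 (28 reads, interval 18.6 to 40.5). For Mthfd2 the nearest values were 2.39 CPM in HFD-T070 5% replicate 8 and 2.72 CPM in HFD replicate 2. On the linear CPM scale, the HFD-T070 5% mean kept 19.2% of the ND-to-HFD difference for Asns and 23.3% for Mthfd2. On the log2 CPM scale with a prior count of 2, the shares were 50.2% and 40.5%, so the order of the genes depends on the scale. Without HFD replicate 1, the shares were 16.8% and 20.0% on the CPM scale and 43.3% and 33.9% on the log2 CPM scale.

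**Figure D2:**
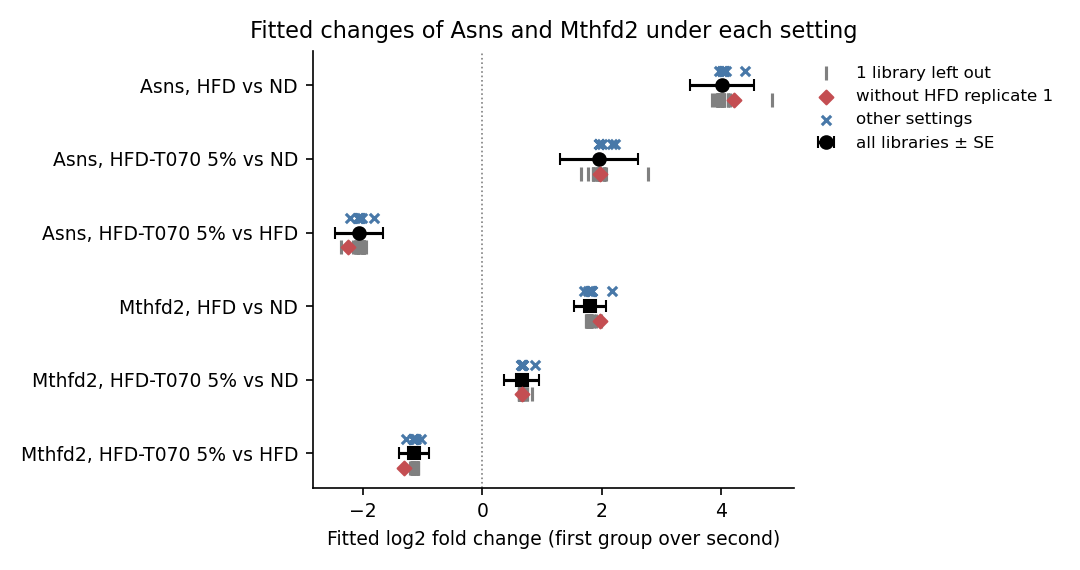
Fitted log2 fold change (horizontal axis, first group over second) of Asns and Mthfd2 in the 3 comparisons. Black symbols with bars give the fit of all libraries with its standard error, grey ticks the fits with 1 library left out, red diamonds those without HFD replicate 1 and blue crosses the other settings. No setting moved a value across 0, and Asns in HFD compared with ND ranged from 3.84 to 4.86 with 1 library left out.

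Reads of Asns and Mthfd2 from the same library can be set against each other without any scaling between libraries, so their ratio shows whether the genes moved to the same extent. Gene length was not used, so the ratio is read only as a difference between groups and not as a relation of the levels of the genes. Summed over a group, there were 13.6 reads of Asns per 100 reads of Mthfd2 in the ND group, 67.0 in the HFD group and 34.5 in the HFD-T070 5% group. Per library, with 0.5 added to each count, the log2 ratio was −4.95 to −1.63 in the ND group, with a mean of −3.19 ± 1.15 (SD, n = 8). In the HFD group it was −2.94 to −0.22, with a mean of −0.94 ± 0.87 (SD, n = 8), and HFD replicate 1 gave the lowest value. In the HFD-T070 5% group it was −2.57 to −0.62, with a mean of −1.65 ± 0.67 (SD, n = 8).

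Relative to ND livers, the log2 ratio was 2.25 higher in HFD livers (exact two-sided permutation test over 12870 splits, p = 0.00155, Benjamini–Hochberg adjusted over 2 tests p = 0.00311). It was 1.54 higher in HFD-T070 5% livers (exact two-sided permutation test, p = 0.00668, adjusted p = 0.00668). Asns thus changed more than Mthfd2 on average in both groups on high-fat diet. The ratios of single libraries overlapped between ND and HFD-T070 5%, and between ND and HFD through HFD replicate 1 only. Without HFD replicate 1 the first difference was 2.53 (exact permutation test, p = 4.66e-04). Between HFD-T070 5% and HFD, the contrast that chose the genes, the ratio differed by −0.70, or −0.99 without HFD replicate 1, given without a test. The ND ratios rest on 0 to 11 Asns reads each, and with 2 added to each count in place of 0.5 the differences from ND fell to 1.57 for HFD and 0.88 for HFD-T070 5%.

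**Figure D3:**
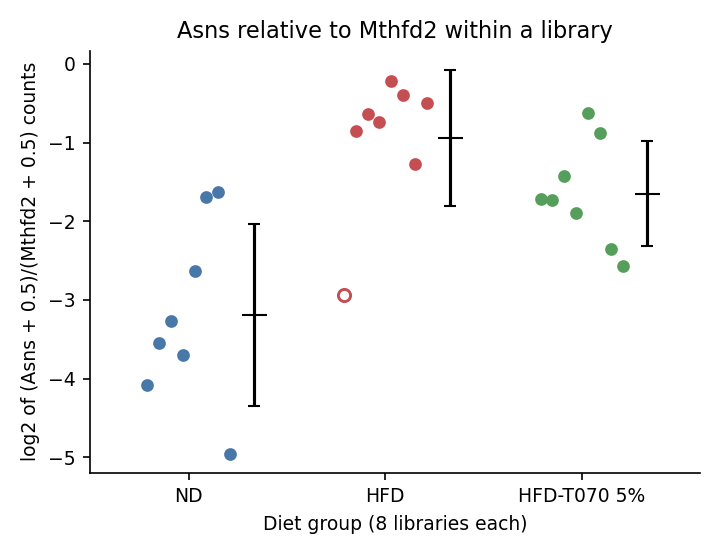
Log2 ratio of Asns to Mthfd2 counts within each library (vertical axis, 0.5 added to each count), by diet group. Points are libraries, the open circle is HFD replicate 1 and the black bar gives the mean and SD of 8 libraries. The group means are −3.19 in ND, −0.94 in HFD and −1.65 in HFD-T070 5%.

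Whether hamsters of the same diet with more Asns also had more Mthfd2 was examined within each group, because the groups differ in level. Both values of a point come from the same library and share its scaling. In the HFD group, Pearson's r of log2 CPM was 0.98 (n = 8, exact two-sided permutation test, p = 0.00278, Benjamini–Hochberg adjusted over 6 values p = 0.0167) and Spearman's rho was 0.76 (exact permutation p = 0.0368, adjusted p = 0.110). This relation rested on the lowest libraries. Without HFD replicates 1 and 2, the farthest from the Asns median, r was 0.60 (n = 6, exact permutation p = 0.219). Without HFD replicate 1 alone, r was 0.83 (n = 7, exact permutation p = 0.0222, adjusted p = 0.133) and rho was 0.64 (exact permutation p = 0.139). Without HFD replicate 2 or HFD replicate 7, r did not fall (0.98 and 0.99). Only the adjusted p of the permutation test rose there, to 0.133 and 0.0714.

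In the HFD-T070 5% group, r was 0.34 (n = 8, exact permutation p = 0.421, adjusted p = 0.632) and rho was 0.19 (exact permutation p = 0.665, adjusted p = 0.665). HFD-T070 5% replicate 5 was far above its group in Asns, at 0.67 on the log2 CPM scale against a median of −0.69, whereas for Mthfd2 it was exceeded by replicate 8. Without replicates 5 and 6, the farthest from the Asns median, r was 0.44 (n = 6, exact permutation p = 0.385). With single libraries left out it ranged from 0.0024 without replicate 2 to 0.54 without replicate 8. In the ND group, r was 0.53 (n = 8, exact permutation p = 0.166, adjusted p = 0.333) and rho was 0.24 (exact permutation p = 0.582, adjusted p = 0.665). It was 0.23 without ND replicates 6 and 7 (n = 6, exact permutation p = 0.669), and −0.18 without ND replicate 7 alone. The ND values rest on 0 to 11 Asns reads per library and the HFD-T070 5% values on 6 to 31, and a p-value that misses the threshold does not show that the genes were unrelated.

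**Figure D4:**
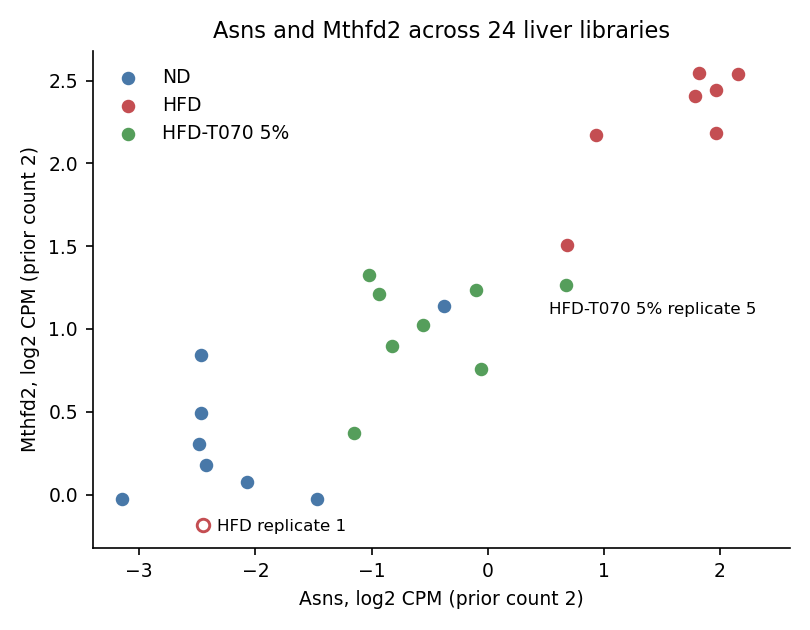
Asns (horizontal axis) against Mthfd2 (vertical axis), both as log2 CPM with a prior count of 2, for the 24 libraries colored by diet group. The open circle is HFD replicate 1, which lies among the ND libraries in Asns (−2.45) and below them in Mthfd2 (−0.19), and HFD-T070 5% replicate 5 lies nearest to the HFD libraries. The upper right holds the other 7 HFD libraries.

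Over all 24 libraries, Spearman's rho of Asns and Mthfd2 was 0.88, a value that includes the difference between diets. Ranked by rho with Asns, Mthfd2 was number 425 of the 13133 other genes (percentile 96.8), and ranked by rho with Mthfd2, Asns was number 266 (percentile 98.0). The 90th percentile of rho over all genes was 0.80 for Asns and 0.78 for Mthfd2. The gene most like Asns was ENSMAUG00000014933 (rho 0.96), and the gene most like Mthfd2 was ENSMAUG00000006616 (rho 0.95). Neither identifier is paired with a name. Of 12 other genes that the study pairs with symbols, Atp6v0d2, which encodes part of the vacuolar proton pump, was closest to both, with rho of 0.93 to Asns (rank 27) and 0.91 to Mthfd2 (rank 78), and Bst1, an ADP-ribosyl cyclase, followed for Mthfd2 (0.91, rank 88). Of these 12 genes, 9 were called higher and 1, Sqle, lower in HFD compared with ND by edgeR, and Lipg and Acly were not called. Over all 13134 genes tested, 3592 (27.3%) were called higher and 3452 lower in this comparison. The study listed the 12 genes for the same contrast as Asns and Mthfd2, on these libraries, so a shared direction is partly built in.

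With the group means removed and only the 16 HFD-fed libraries kept, rho of Asns and Mthfd2 was 0.71, and Mthfd2 was number 854 in likeness to Asns. Without HFD replicate 1, rho fell to 0.43 (15 libraries) and the rank to 2071. In likeness to Mthfd2, Asns was number 593 on the 16 libraries and 1313 on the 15. The 90th percentile of rho over all genes on the 15 libraries was 0.51 for Asns and 0.43 for Mthfd2, so the pair did not stand out there. The rho of Asns with Sqle, squalene monooxygenase of cholesterol synthesis, turned on HFD replicate 1. It was 0.80 (rank 40) on these 15 libraries, 0.13 (rank 5508) on the 16 and −0.47 (rank 9404) on all 24. The rho of Asns with Mboat1, a lysophospholipid acyltransferase, was 0.75 (rank 113) on the 15 and 0.77 (rank 447) on the 16 libraries. The rho of Mthfd2 with Alox5, arachidonate 5-lipoxygenase, was 0.65 (rank 205) and 0.75 (rank 327). Atp6v0d2 and Bst1, close to both genes over 24 libraries, were less so here. On the 15 libraries, rho of Atp6v0d2 was 0.46 with Asns (rank 1754) and 0.26 with Mthfd2 (rank 3027). For Bst1 it was 0.28 (rank 3439) and 0.26 (rank 3079). On the 16 libraries, Atp6v0d2 had 0.85 and 0.69, and Bst1 had 0.75 and 0.71. These correlations share libraries and scaling and are a description only, and Sqle, Mboat1 and Alox5 were singled out after their values were seen.

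**Figure D5:**
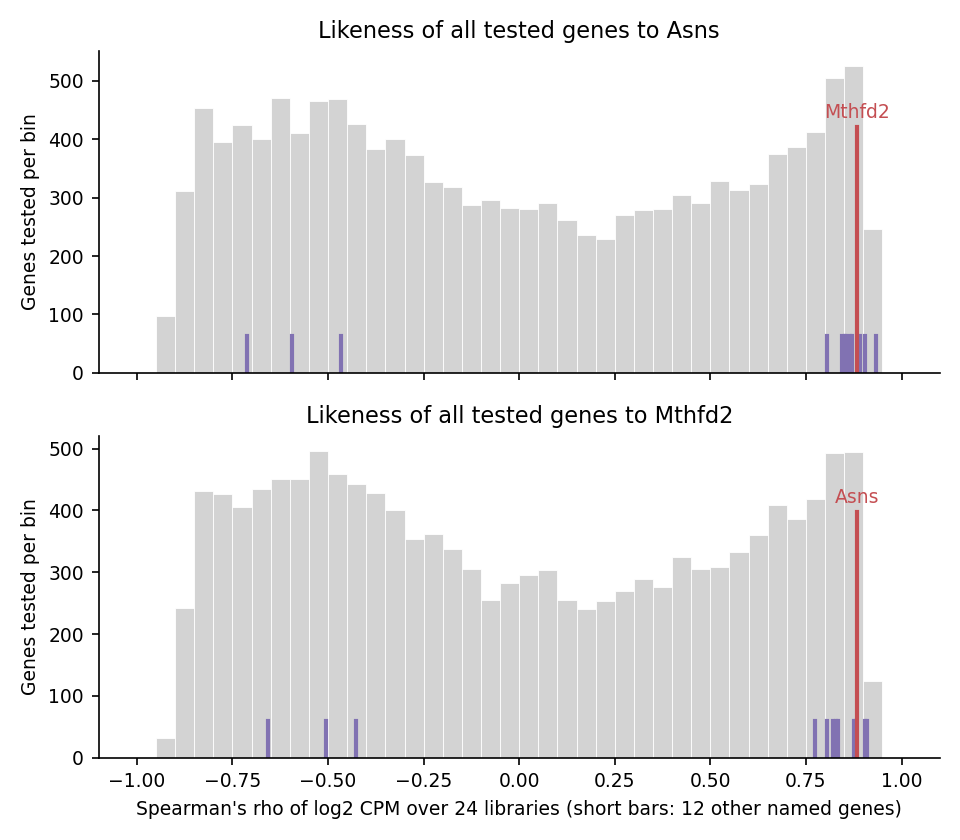
Number of genes tested (vertical axis) by Spearman's rho of their log2 CPM with Asns (top) and with Mthfd2 (bottom) over 24 libraries. The red line marks the other of the 2 genes, at 0.88 in both panels, and short bars mark 12 other genes with symbols. Many genes lie at high rho, with the 90th percentile at 0.80 and 0.78.

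Genes associated with myeloid cells moved in the same order as Asns and Mthfd2. Bst1, Atp6v0d2, Alox5 and Pla2g7, a macrophage-secreted phospholipase, were the only such genes with a symbol, and the study chose all 4 on these libraries, so they are not independent evidence. Their summed level was 5.93 to 10.6 CPM in the ND group, 8.64 to 123.2 CPM in the HFD group and 30.5 to 57.7 CPM in the HFD-T070 5% group. Most of the sum was Pla2g7. Its mean was 6.98 of 7.66 CPM in the ND group, 66.3 of 86.9 CPM in the HFD group and 33.1 of 39.7 CPM in the HFD-T070 5% group. HFD replicate 1 held the 8.64 CPM, within the ND range, and 55.1 CPM was the next lowest HFD value. Atp6v0d2 had a median of 0 CPM in the ND group, and the other 3 genes were counted there. All 4 passed edgeR's test as higher in HFD than in ND, where 27.3% of all genes tested did. All 4 also passed as higher in HFD-T070 5% compared with ND, where 22.3% of all genes did. The library with the most Asns in the HFD-T070 5% group, replicate 5, also had the highest sum, 57.7 CPM, and the other 7 had at most 44.7 CPM. Replicate 5 was the highest of its group in Bst1, Atp6v0d2 and Pla2g7, but the highest Alox5 value, 1.64 CPM, was in another library. The part of cell composition in the levels of Asns and Mthfd2 was not tested.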

How the data were processed

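The authors depleted ribosomal RNA from liver total RNA, prepared directional libraries and sequenced them from 1 end over 75 cycles. Reads were trimmed by Trimmomatic 0.36, mapped and counted per gene with STAR 2.7.10 on the assembly MesAur1. The deposited values are raw counts per Ensembl gene. The annotation release and the strand setting are not given in the sources used here, so reads of overlapping genes could be shared. Columns were matched to libraries by their labels.

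From the counts, genes were kept by filterByExpr (minimum count 10, minimum total 15), which left 13134 of 22283, and tested in R 4.3.3 with edgeR 4.0.16 (TMM, glmQLFit, glmQLFTest) in 1 fit of 24 libraries and 3 groups with Benjamini–Hochberg adjustment over all genes and a threshold of 0.05. A standard error is |log2 fold change| over the root of the F statistic. Log2 CPM used a prior count of 2. Exact permutation tests were enumerated completely. Scripts were tested on simulated data. Libraries of the same group differed by more than sampling noise (chi-square per degree of freedom at least 7.69), so none was treated as a second deposit of another, and separate hamsters are as the labels give them. Depth limits precision at low counts: intervals are exact Poisson and cover counting error only.

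The members, lists and tests were chosen with earlier results of these data known. Named were Asns and Mthfd2, 12 other genes that the study pairs with symbols, and the identifier most like each member. The rule gave 2 identifiers per member, and 1 is printed because names were not available: the RefSeq gene table (assembly BCM_Maur_2.0) matched 0 identifiers. No sequence or genome was used here. Alternatives were DESeq2 1.42.0 size factors and Wald test, voom of limma 3.58.1, library totals, edgeR 3 dispersions, other filters, a fit of only the compared groups, replicate number as block, other offsets and priors, and each library left out.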

Additional observations from a re-analysis of the deposited data

Results flagged for a closer look

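In 12 groups of 8 values (log2 CPM of Asns and of Mthfd2, their log2 ratio, and library totals), a library was singled out when it lay beyond the 95% limit of Dixon's test for 8 values, which sets the gap to its neighbor against the group's range. Chance does this in about 1 in 20 groups, and it occurred 4 times.

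HFD replicate 1 was singled out 3 times, at −2.45 log2 CPM of Asns, at −0.19 log2 CPM of Mthfd2 and at −2.94 for the log2 ratio of Asns to Mthfd2, below the other HFD libraries each time. These values come from 1 library and are not independent of each other. HFD replicate 7 was singled out for the smallest total, 10789142 counts. It held 18 reads of Asns and 44 of Mthfd2, at 1.80 and 4.40 CPM, and its log2 ratio of −1.27 was the lowest of the HFD libraries other than replicate 1. The part of depth in these values was not tested.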

How the results depend on the processing

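The rises of Asns and Mthfd2 in HFD compared with ND passed under all alternatives that gave a value. Asns ranged from 3.97 to 4.39 on the log2 scale (3.84 to 4.86 with 1 library left out), Mthfd2 from 1.71 to 2.17 (1.73 to 1.98). Asns in HFD-T070 5% compared with ND was 2.23 with voom (adjusted p = 0.0565) and 1.65 to 2.78 with 1 library left out, and Mthfd2 was 0.88 with library totals (adjusted p = 0.0347), 0.67 with only the groups compared, and 0.61 to 0.83 with 1 library left out. Library totals moved the median log2 fold change of all genes from −0.01 to 0.21 in this comparison, from −0.03 to 0.29 in HFD compared with ND and from −0.01 to −0.11 in HFD-T070 5% compared with HFD. In that last comparison, 624 genes were called, against 1209 with the Wald test of DESeq2, 357 with voom, 511 with edgeR 3 dispersions (186 higher and 325 lower, against 219 and 405), 407 with at least 10 counts in every library, 142 with only the groups compared and 105 (without HFD replicate 4) to 2935 (without HFD replicate 1) with 1 library left out. Without HFD replicate 7, 2542 genes were called there, so HFD replicate 1 was not the only library with a large influence. With 1 library left out, r ranged from −0.18 to 0.74 within ND, from 0.83 to 0.99 within HFD and from 0.0024 to 0.54 within HFD-T070 5%. The value within ND reversed without ND replicate 7. Asns had no value with at least 10 counts in every library, or between HFD-T070 5% and ND alone, where it was filtered out. Leaving out HFD replicate 1 from the HFD-fed deviations (rho 0.43) was added after seeing the data. The causes were not tested.

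Replicate numbers in the titles showed no clear pairing of the hamsters. Of 24 same-numbered pairs, 7 had a correlation over 0.1 (−0.24 to 0.49), and own numbers correlated best in 7 of 48 cases. These correlations cannot exclude a pairing. With the number as a block, 346 genes were called between HFD-T070 5% and HFD, and no call for Asns or Mthfd2 changed. Depth limits Asns in ND most.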
